A study of Arabidopsis thaliana with 12 samples.

Results

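AT1G74470, which encodes the geranylgeranyl reductase of chlorophyll synthesis (also called CHLP), and CHLM (AT4G25080), which encodes the Mg-protoporphyrin IX methyltransferase of the same pathway, were followed in total RNA of the Arabidopsis thaliana mutant prors2 and of wild type. These 2 genes were chosen by name, not by their values, though earlier results of these data were known. Each is read by 1 probe that the platform annotation assigns to that gene alone, out of 3439 probes on the array. The 6 prors2_dark samples are described as a mutant that lacks prolyl-tRNA synthetase, which loads proline onto its tRNA so that it can be built into proteins, and the 6 WT2_dark samples as wild type. All plants were of ecotype Columbia 0 and were dark adapted over night. The sources used here give no tissue, age, allele or growth condition, and nothing on pooling of plants. The groups rest on the sample titles alone, because the source label reads WT for all 12 samples, those titled prors2 included. The 2 in the wild-type name is not explained there. No probe is listed for AT5G52520 (PRORS1), whose listed synonyms include prolyl-tRNA synthetase 1, so the mutant label was not checked on it.

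Chlorophyll is made in the plastid by enzymes that are encoded in the nucleus. After magnesium has been placed in protoporphyrin IX, CHLM transfers a methyl group from S-adenosylmethionine to the product, a step that precedes closure of the fifth ring. Geranylgeranyl reductase works on the side chain instead. It reduces geranylgeranyl to phytyl, the tail that anchors chlorophyll in the membrane and that is also used for tocopherol and phylloquinone. In flowering plants the pathway stops at protochlorophyllide in darkness, because the reductase of that intermediate needs light.

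The values are deposited intensities on a linear scale in arbitrary units. The 2 groups differed in signal across the array as a whole. The median probe lay between 0.240 and 0.403 in the prors2 samples and between 0.0620 and 0.0852 in the wild-type samples, and 431 to 609 probes were listed at 0 in prors2, against 746 to 926 in wild type. Neighbouring sample numbers (1 with 2, 3 with 4, 5 with 6), called pairs here, were more alike than others. In prors2 the deviations from the group mean correlated between the samples of a pair with r from 0.538 to 0.837, against -0.627 to -0.217 between samples of different pairs, and in wild type with r from -0.030 to 0.176, against -0.353 to -0.153 (across 1940 features above 0 in all samples, which are not independent). The labels do not say whether such a pair is 1 RNA. The spread behind each p-value is that between these samples and could be technical, and a p-value from all 12 is too low should the samples of a pair come from 1 extract.

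The deposited signal of the geranylgeranyl reductase gene was lower in every prors2 sample than in any wild-type sample, whereas that of CHLM was higher in most prors2 samples. AT1G74470 had 3.28, 2.62, 1.83, 1.89, 2.96 and 3.25 units in prors2 samples 1 to 6. In wild-type samples 1 to 6 it had 3.70, 3.41, 4.06, 3.93, 3.78 and 4.19 units. The groups did not overlap, which held in this direction for 3.20% of the probes tested, and the lowest values were those of prors2 samples 3 and 4, which are a pair. The mean was 2.64 ± 0.647 units in prors2 and 3.85 ± 0.278 units in wild type (SD, n = 6 each), a change of -31.3%. On the log2 scale the difference as deposited (prors2 minus wild type, as for all differences here) was -0.58 with a 95% interval from -0.98 to -0.18 (limma, adjusted p = 0.0121 over 2684 features). Of all tested features, 5.37% passed as lower on this scale. By an exact permutation test over the samples, 2-sided, p was 0.00216, the smallest that 6 against 6 can give (0.00433 adjusted over both genes).

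CHLM had 0.568, 0.627, 0.431, 0.221, 0.712 and 0.675 units in prors2 samples 1 to 6. In wild-type samples 1 to 6 it had 0.202, 0.135, 0.244, 0.131, 0.292 and 0.202 units. Of the 6 prors2 samples, 5 lay above every wild-type sample, and prors2 sample 4 lay within the wild-type range. All prors2 samples were above all wild-type samples for 52.5% of the probes tested. The mean was 0.539 ± 0.184 units in prors2 and 0.201 ± 0.0622 units in wild type (SD, n = 6 each). The difference as deposited was 1.38 on the log2 scale, with a 95% interval from 0.71 to 2.06 (limma, adjusted p = 0.00153; exact permutation p = 0.00649, adjusted over both genes 0.00649). On this scale 69.6% of all features passed as higher and their overall median difference was 1.49, so the CHLM call was that of most of the array. In all bulk values, fewer cells of a type and less RNA per cell cannot be told apart.

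**Figure D1:**
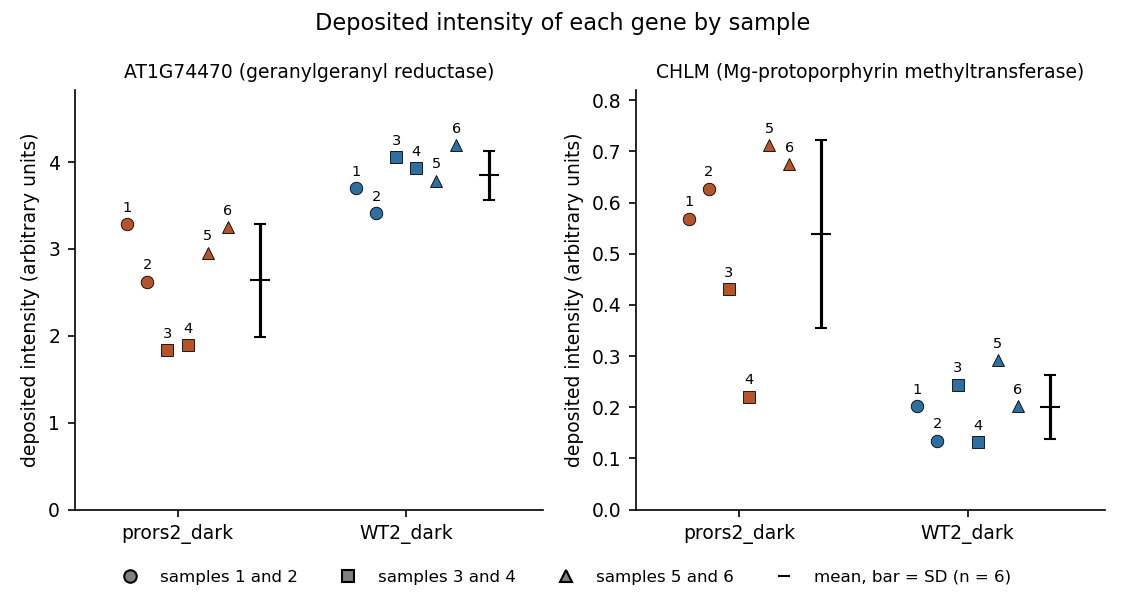
Deposited intensity in arbitrary units of AT1G74470 (left) and CHLM (right) in the 6 prors2_dark and 6 WT2_dark samples; numbers are the sample numbers, shapes the consecutive pairs, and bars the mean and SD (n = 6). AT1G74470 is between 1.83 and 3.28 in prors2 and between 3.41 and 4.19 in wild type, whereas CHLM overlaps between the groups only at prors2 sample 4 (0.221).

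The size of a deposited difference depended on how bright a feature was, so each gene was set beside features of like brightness. The 2684 tested features were divided into 10 bins of nearly equal size by their mean log2 intensity over the 12 samples. CHLM lay in bin 7, counted from the dimmest, whose 268 features had a median difference of 1.39 with quartiles of 0.75 and 2.12. Its own difference, 1.38, was thus at the middle of that bin, where 78.0% of features passed as higher. AT1G74470 lay in the brightest bin, whose 269 features had a median difference of -0.071 with quartiles of -0.54 and 0.34. Its own difference, -0.58, was just below the lower quartile, in a bin where 53.9% of features were lower and 31.6% passed as lower. On a linear scale the mean of CHLM was 0.338 units above wild type, against 0.257 units for the mean of the sample medians, while that of AT1G74470 was -1.21 units away.

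**Figure D2:**
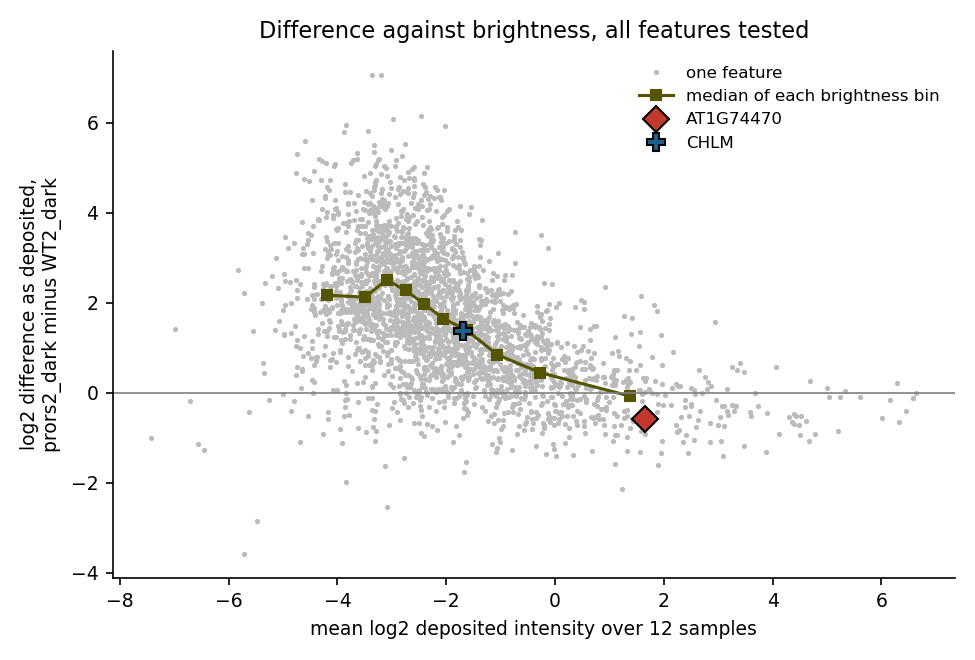
Log2 difference as deposited (prors2_dark minus WT2_dark) against mean log2 deposited intensity over the 12 samples, for each of the 2684 features tested; squares give the median of each brightness bin. CHLM (1.38) sits at the median of its bin (1.39), and AT1G74470 (-0.58) lies below the median of the brightest bin (-0.071).

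After quantile normalization, which gives all samples the same distribution of signal, neither gene passed the test. The normalized log2 intensity of AT1G74470 was 1.44 ± 0.36 in prors2 and 1.83 ± 0.13 in wild type (SD, n = 6 each). The difference was -0.39 with a standard error of 0.18 and a 95% interval from -0.79 to 0.005 (limma, adjusted p = 0.0968). That of CHLM was -1.66 ± 0.59 in prors2 and -1.69 ± 0.37 in wild type (SD, n = 6 each), with a difference of 0.038, a standard error of 0.28 and a 95% interval from -0.57 to 0.64 (limma, adjusted p = 0.923). For comparison, 45.6% of all features passed in this fit, 25.0% as higher and 20.6% as lower. The interval of CHLM leaves room for a change of up to about the size of that of AT1G74470 as deposited, in either direction.

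AT1G74470 had a difference below 0 in all 32 fits run, and 7 of them passed the threshold, all as lower. The fits reuse the same 12 samples and are not independent. AT1G74470 passed when only the features above 0 in all 12 samples were normalized (-0.55, limma, adjusted p = 0.0187, where 26.7% of features passed as lower). It also passed when values at 0 were kept with a pseudocount of 0.0037 (-0.57, limma, adjusted p = 0.0214, where 26.0% did). With each sample centred on its median the difference was -2.16 (limma, adjusted p = 2.02e-07), on a scale where 33.7% of features passed as lower. Centring moves all features of a sample by the same amount, and the share of the brightest bin that passed on this scale was not counted. The 5 photosynthesis genes described below, which lie in the same brightness bin, differed by -2.51 to -1.67 on that scale. With each pair of consecutive samples averaged, 3 against 3, AT1G74470 did not pass after quantile normalization (-0.39, limma, adjusted p = 0.383) or as deposited (-0.58, adjusted p = 0.136). It did pass with pairs averaged and median centring (-2.16, adjusted p = 0.00257, where 26.3% passed as lower).

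CHLM changed sign with the scaling and with the samples that were kept. Its difference was above 0 in 21 of the 32 fits and below 0 in 11, and the 3 fits it passed, all as higher, were on the deposited scale. With median centring it was -0.20 (limma, adjusted p = 0.538). With pairs averaged as deposited it was 1.38 (limma, adjusted p = 0.0210), on a scale where 56.2% of features passed as higher, and without numbers 3 and 4 it was 1.68 (adjusted p = 4.15e-04, where 70.7% did).

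**Figure D3:**
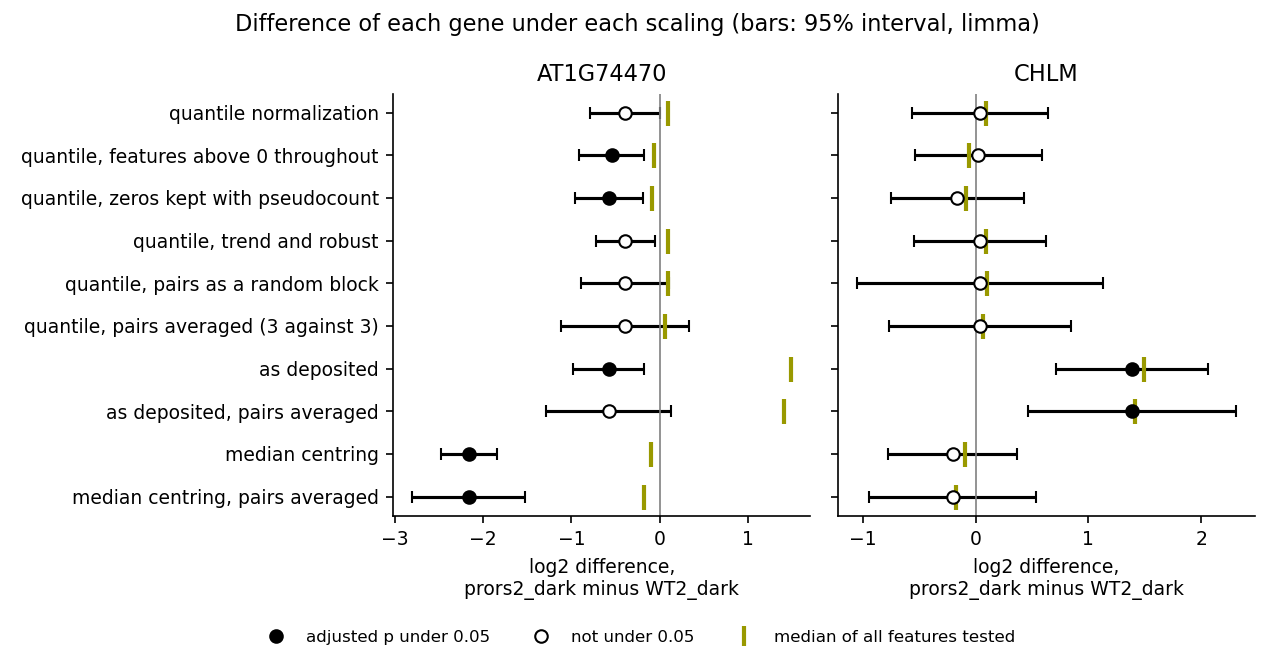
Log2 difference (prors2_dark minus WT2_dark) of AT1G74470 and CHLM under 10 scalings or fits, with 95% intervals from limma; filled points have an adjusted p under 0.05 and the vertical ticks give the median difference of all features tested. AT1G74470 is below 0 throughout, from -0.39 to -2.16, and CHLM stays near the tick of its fit.

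A ratio of probes within a sample does not depend on a multiplicative scale of that sample. It does depend on any signal added to every probe, and on how widely the log2 values of a sample spread. The SD of the log2 values was 1.58 to 1.87 in the prors2 samples and 2.47 to 2.52 in the wild-type samples. The part of this in the ratios was not tested. The log2 ratio of AT1G74470 to CHLM ran from 2.05 to 3.10 in the prors2 samples and from 3.70 to 4.90 in the wild-type samples. The groups did not overlap, and this ratio, of a gene in the brightest bin to one in bin 7, was lower in 6 of 6 prors2 samples. The mean was 2.35 ± 0.41 in prors2 and 4.31 ± 0.43 in wild type (SD, n = 6 each), a difference of -1.96, or a 3.90-fold lower ratio (exact permutation, 2-sided, p = 0.00216, and 0.00325 adjusted over 3 ratios). Taken pair by pair, the difference was -2.13 (samples 1 and 2), -1.88 (3 and 4) and -1.87 (5 and 6). The medians of the brightness bins that hold these genes differ by -1.46 in the same direction. How often ratios of other probes separate the groups was not counted. With pairs averaged, the exact p was 0.1, the smallest that 3 against 3 can give, and on quantile-normalized values the difference was -0.43 (exact permutation, p = 0.108, adjusted 0.162).

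As a further comparison, both genes were set against 5 photosynthesis genes that were measured by a probe of their own. They are LHB1B2, a chlorophyll-binding light-harvesting protein of photosystem II, PSAN of photosystem I, PSBY and PSBW of photosystem II, and PRK, the phosphoribulokinase of the Calvin cycle. They were chosen from genes that the array holds, with earlier results of these data known, and are not all of those. The p-values of ratios to them are therefore descriptive. Among the ones left out, PSB27 of photosystem II and NdhS of the chloroplast NDH complex had deposited differences of 0.51 and 0.20. Those of the 5 ran from -0.92 (LHB1B2) to -0.089 (PSBW). Both ratios are thus relative to these 5 alone. The log2 ratio of AT1G74470 to their mean was -1.63 ± 0.18 in prors2 and -1.54 ± 0.15 in wild type (SD, n = 6 each), a difference of -0.085 (exact permutation, 2-sided, p = 0.381, adjusted 0.381). On quantile-normalized values it was -0.24 (exact permutation, p = 0.0303, adjusted 0.0909). Against the single genes the difference of its ratio ran from -0.49 against PSBW to 0.34 against LHB1B2. The ratio to LHB1B2 was higher in all 6 prors2 samples than in any wild-type sample, which is to say that LHB1B2 was lower by more than AT1G74470 was. The share of features that separate in this way against LHB1B2 was not counted.

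CHLM was higher relative to these 5 photosynthesis genes on the deposited scale. Its log2 ratio to their mean was -3.98 ± 0.43 in prors2 and -5.86 ± 0.42 in wild type (SD, n = 6 each), a difference of 1.88 (exact permutation, 2-sided, p = 0.00216, adjusted 0.00325). The prors2 values ran from -4.86 to -3.68 and the wild-type values from -6.35 to -5.40, without overlap. Against the 5 single genes the difference ran from 1.47 to 2.30. On quantile-normalized values it was 0.19 (exact permutation, p = 0.418, adjusted 0.418), and with pairs averaged the exact p was 0.1 (adjusted 0.15). All 5 photosynthesis genes lay in the brightest bin, with AT1G74470, and the median difference of the bin that holds CHLM was 1.46 above that of the brightest bin. As deposited, all prors2 samples lay above all wild-type samples for 52.5% of the probes tested. How many features separate the groups as a ratio to these 5 genes was not counted.

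**Figure D4:**
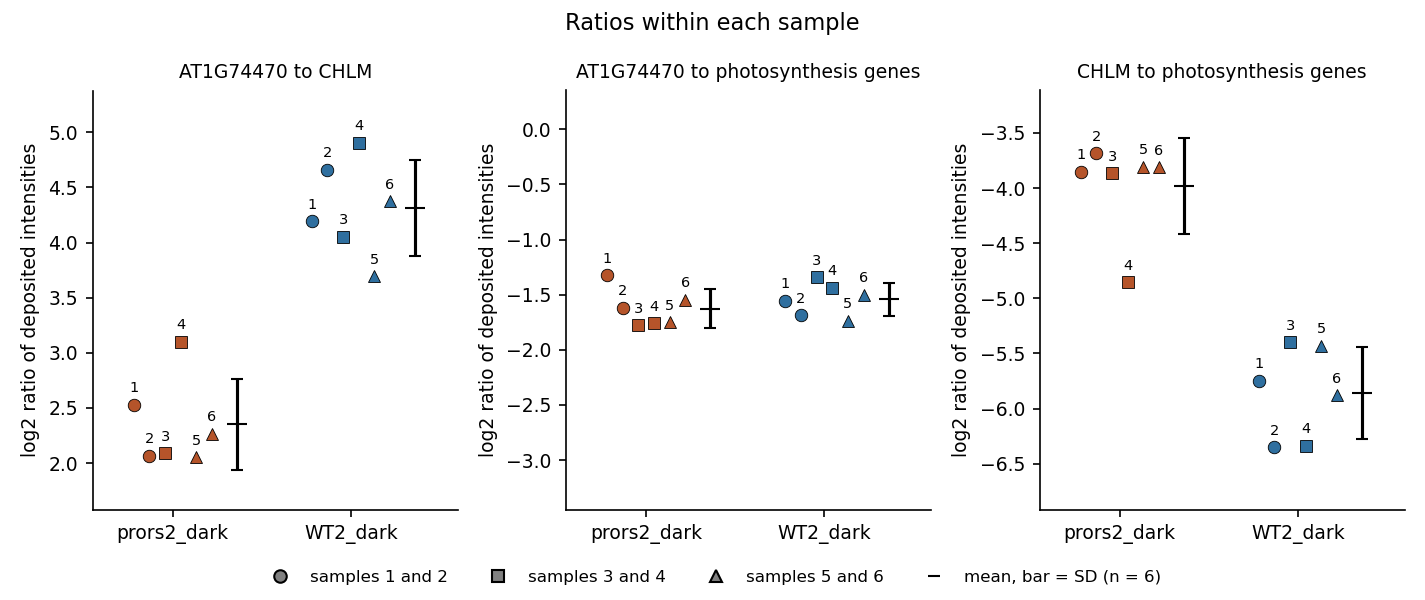
Log2 ratio of deposited intensities within each sample, for AT1G74470 to CHLM (left), AT1G74470 to the mean of 5 photosynthesis genes (middle) and CHLM to that mean (right), on axes of equal span; shapes mark consecutive pairs and bars the mean and SD (n = 6). The left and right ratios, which set genes of different brightness bins against each other, do not overlap between the groups. The middle one, within the brightest bin, does. The medians of these bins differ by -1.46 (left), 0 (middle) and 1.46 (right). How many other features separate in this way was not counted.

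The lower signal of AT1G74470 was unequal among the prors2 samples. Pair by pair, its difference as deposited was -0.28 (samples 1 and 2), -1.10 (3 and 4) and -0.36 (5 and 6), and after quantile normalization -0.12, -0.98 and -0.080. Samples 3 and 4 alone, 2 against 2, had a limma adjusted p = 0.0177 (19.1% of features passed as lower). The error of that fit is only the spread within a pair, which may be technical, and this pair held the lowest prors2 values. Without numbers 3 and 4 in both groups the normalized difference was -0.098 (limma, adjusted p = 0.618) and the deposited one -0.32 (adjusted p = 0.0855), and of these 3 scales it passed on the median-centred one (-2.04, adjusted p = 2.93e-05, where 36.7% passed as lower). Prors2 samples 3 and 4 were also the dimmest of their group, with medians of 0.240 and 0.244 against 0.362 to 0.403 in the other prors2 samples, and had 606 and 609 probes at 0 against 431 to 479. Wild-type samples 3 and 4 were the dimmest of theirs too, with medians of 0.0620 and 0.0646 against 0.0800 to 0.0852. They had 926 and 916 probes at 0 against 746 to 791, and AT1G74470 had 4.06 and 3.93 units in them. The part of this in the result was not tested. The coefficient of variation of AT1G74470 was 24.5% in prors2 and 7.23% in wild type.

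CHLM varied within pairs as well as between them. Its log2 intensity differed between the samples of a pair by 0.14, 0.97 and 0.079 in prors2, and by 0.59, 0.90 and 0.53 in wild type. In wild type the odd-numbered sample was the higher one in each of the 3 pairs. AT1G74470 differed within pairs by 0.043 to 0.32 in prors2 and by 0.047 to 0.15 in wild type. CHLM thus differed more within each wild-type pair than AT1G74470 did, and in prors2 it did so for samples 3 and 4 but not for the other 2 pairs. Over all samples of a group, the coefficient of variation of CHLM was 34.2% in prors2 and 30.9% in wild type. The normalized difference of CHLM was 0.21 (samples 1 and 2), -0.42 (3 and 4) and 0.33 (5 and 6). Without prors2 sample 4 it was 0.26 (limma, adjusted p = 0.367), and leaving out any other single sample kept it between -0.072 and 0.13.

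Few neighbours of these genes in the pathway were measured. Of 37 loci listed for chlorophyll and haem synthesis, only the 2 genes described here have a probe of their own, and 6 more share a probe with other genes and were not named. After quantile normalization 0 of these 2 passed, in a fit that called 45.6% of all features (limma; 0 of 2 also at an unadjusted p under 0.05, where AT1G74470 had 0.0526), with a median difference of -0.18, against 0.094 over all features. The list left out HEMA3, a gene of an earlier step of this pathway that does have a probe of its own. Its difference was 0.94 as deposited and 0.77 after quantile normalization, and no test is given for it here. None of the 10 loci of chlorophyll breakdown and the chlorophyll cycle, the 10 of the plastid isoprenoid pathway that makes geranylgeranyl diphosphate, or the 7 for supply of S-adenosylmethionine has such a probe. Of the 7 tocopherol and phytol loci, 1 was measured. AT1G78620 had 1.55 ± 0.132 units in prors2 and 0.779 ± 0.176 units in wild type (SD, n = 6 each), and rose by 0.71 on the normalized log2 scale (limma, adjusted p = 0.00858). Averaging the pairs ended this call (0.71, limma, adjusted p = 0.147), and with median centring its difference was -0.56 (adjusted p = 0.0535). The 7 loci listed for the response to darkness and the 13 transcription factors of light signalling and greening were not measured by such a probe either. The markers listed for root (5), flower (5), seed (4) and guard cells (3) have no probe of their own, so the tissue was not checked on them. Of 23 photosystem loci and 20 light-harvesting loci listed, which leave out PSB27, 3 and 1 were measured. After quantile normalization 0 of these 4 passed, with adjusted p from 0.0660 to 0.413 (limma), against 45.6% of all features, and 1 of them, PSBY, had an unadjusted p under 0.05. With median centring all 4 passed as lower (limma, adjusted p from 1.25e-07 to 1.32e-05), and as deposited LHB1B2 (-0.92, limma, adjusted p = 7.96e-04) and PSBY (-0.52, adjusted p = 0.0367) did. Of all features, 33.7% passed as lower with median centring and 5.37% as deposited. All 4 lay in the brightest bin, where 31.6% of features passed as lower as deposited.

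The genes whose normalized values followed each of the pair most closely were sought among 367 other single-gene features above 0 in all 12 samples. Over the 12 samples AT1G74470 was most like AT3G26630 (Pearson r = 0.90), AT1G13990 (0.89), AT1G15140 (0.88), PSAN (0.87) and LHB1B2 (0.87). With each group's mean removed the closest were AT3G26630 (0.95), PSAN (0.92), NdhS, a subunit of the chloroplast NDH complex (0.84), AT2G28200 (0.84) and AT1G13990 (0.83). These correlations are a description of samples that share pairs, and prors2 samples 3 and 4 weigh heavily in them. Without those samples, over the other 10, the group-adjusted r was 0.77 for AT3G26630, 0.60 for PSAN, -0.55 for NdhS, 0.27 for AT2G28200 and 0.22 for AT1G13990. The r with group means kept was then 0.31 for AT3G26630, 0.59 for AT1G13990, 0.67 for AT1G15140, 0.34 for PSAN and 0.64 for LHB1B2. AT3G26630 had 13.4 ± 4.73 units in prors2 and 23.9 ± 1.96 units in wild type, and PSAN had 6.35 ± 3.07 units in prors2 and 9.23 ± 1.67 units in wild type (SD, n = 6 each).

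CHLM had weaker matches. Over the 12 samples they were AT1G03660 (r = 0.69), AT3G06570 (0.66), PSAN (0.66), LHB1B2 (0.62) and AT5G10910 (0.62), and without prors2 samples 3 and 4 these r were 0.68, 0.45, 0.76, 0.065 and 0.40. With group means removed they were LHB1B2 (0.80), AT5G10910 (0.76), AT3G06570 (0.76), AT1G13990 (0.74) and PSAN (0.71), and without prors2 samples 3 and 4 these r were 0.56, 0.70, 0.60, 0.46 and 0.75. PSAN and AT1G13990 were among the 5 closest genes of both AT1G74470 and CHLM once group means were removed. The r between AT1G74470 and CHLM themselves was 0.38 over the 12 samples and 0.52 with group means removed. Without prors2 samples 3 and 4 it was -0.077 and 0.20. Of the other genes, 44 followed AT1G74470 and 32 followed CHLM more closely than these 2 followed each other, with group means removed.

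**Figure D5:**
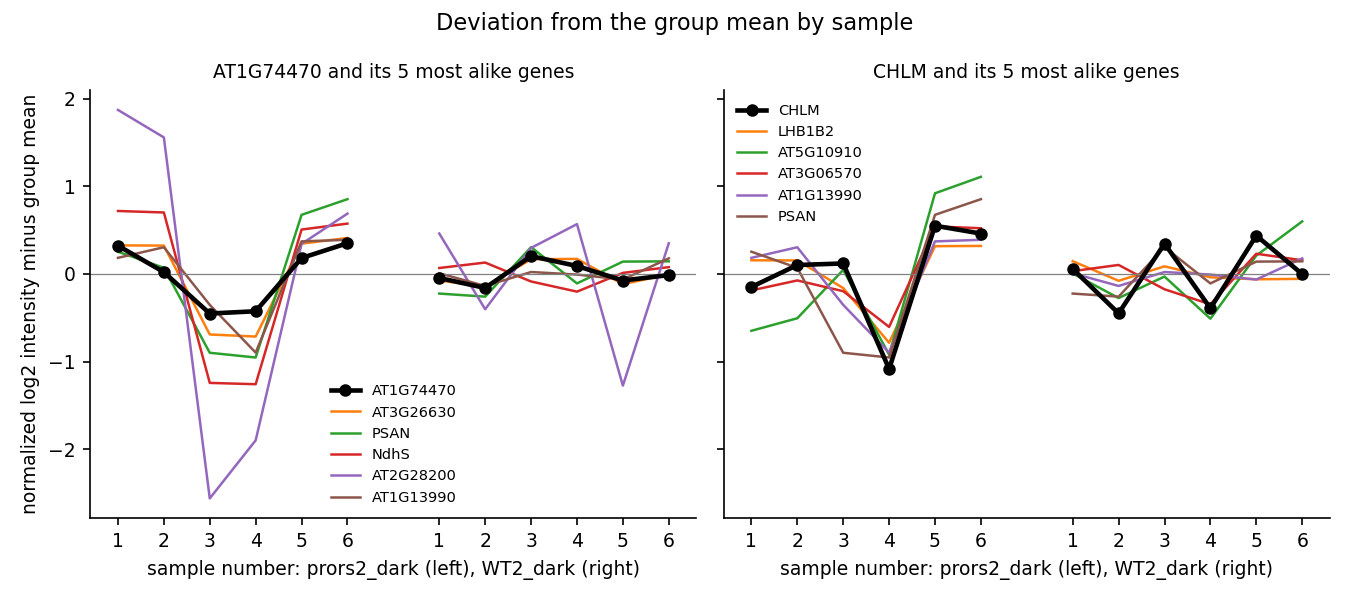
Normalized log2 intensity minus the group mean, by sample number, for AT1G74470 (left, black) and CHLM (right, black) and the 5 genes most like each with group means removed; prors2_dark samples are on the left of each panel and WT2_dark on the right. AT1G74470 and its 5 genes dip together at prors2 samples 3 and 4, and CHLM dips at prors2 sample 4. The 5 genes were picked for likeness on these same values, so a shared course was built in. Without prors2 samples 3 and 4, r with AT1G74470 ran from -0.55 (NdhS) to 0.77 (AT3G26630).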

How the data were processed

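Array intensity values for 3439 probes in 12 samples were used as deposited; the intensity is linear, from 0 to a top value of about 100 reached by 2 to 6 probes a sample. No label or header used here names the array type, or says how the authors corrected, scaled or averaged spots. The number of arrays limits the precision. The platform annotation lists 1 gene for 692 probes, several for 870 and none for 1877; 690 of the 692 matched the TAIR10.1 gene table, used for names.

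Values at 0 were treated as missing. The log2 of the rest was quantile-normalized, and probes of a gene were averaged (3438 features). Tested were the 2684 features above 0 in 3 or more samples of each group, with lmFit and eBayes of limma 3.58.1 (R 4.3.3), 2-sided, with Benjamini-Hochberg adjustment over all of them and a threshold of 0.05. The fit was tested on simulated data. Single ratios were tested by exact permutation (scipy 1.17.1). Genes named are AT1G74470 and CHLM, measured members of the pathway lists, and the 5 features most like each of the pair. HEMA3 and PSB27 are named as measured genes that the lists left out. These genes, lists, tests and alternatives were chosen with earlier results of these data known.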

Additional observations from a re-analysis of the deposited data

Results flagged for a closer look

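Of 14 groups of 6 values examined (intensity, normalized value and ratios of AT1G74470 and CHLM), 1 had a sample far from the others, where chance gives about 1 in 20. Prors2 sample 4 had a log2 ratio of CHLM to the photosynthesis genes of -4.86, and the other prors2 samples lay between -3.87 and -3.68.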

How the results depend on the processing

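AT1G74470 kept its direction in all fits and passed as lower as deposited (-0.58), with median centring (-2.16, also with pairs averaged; -2.04 without numbers 3 and 4), over features above 0 in all 12 samples (-0.55), with zeros kept (-0.57) and in samples 3 and 4 alone (-0.98). CHLM passed as higher as deposited (1.38, also with pairs averaged; 1.68 without numbers 3 and 4). It was below 0 without passing with median centring (-0.20, also with pairs averaged; -0.035 without numbers 3 and 4), with zeros kept (-0.16), without numbers 1 and 2 (-0.048), without 5 and 6 (-0.11; 0.27 without 3 and 4) and in 3 and 4 alone (-0.42). Of all features, 5.37% passed as lower as deposited and 33.7% with median centring (26.3% with pairs averaged, 36.7% without numbers 3 and 4). This share was 26.7% over features above 0 in all 12 samples, 26.0% with zeros kept and 19.1% in samples 3 and 4 alone. For the CHLM calls, 69.6% passed as higher (56.2% with pairs averaged, 70.7% without numbers 3 and 4). Leaving out 1 sample gave -0.46 to -0.30 for AT1G74470 and -0.072 to 0.26 for CHLM. With the replicate block, the differences were -0.39 and 0.038 (limma, adjusted p = 0.154 and 0.896) and 1209 features passed. Same-numbered samples deviated together with r from 0.053 to 0.16 and 4 of 6 prors2 samples (1, 2, 5 and 6) correlated best with their own number, a hint from the data, not the design, that numbers share something across groups; the labels do not say so. Features passing numbered 1225, against 2013 as deposited (1909 without numbers 3 and 4), 515 with pairs averaged and 671 with pairs as a random block. With pairs averaged the ratios AT1G74470 to CHLM (-1.96) and CHLM to the photosynthesis genes (1.88) had an exact p of 0.1 (adjusted 0.15), which 3 against 3 samples cannot lower. On quantile-normalized values they were -0.43 and 0.19, not passing. AT1G74470 to the photosynthesis genes was 0.061 without numbers 3 and 4. The causes were not tested.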
